A study of Mus musculus with 12 samples.

Results

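The subject is the histone mark H3K27ac in cKit+ bone marrow cells of mice that carry Phf6 R274X as a transgene (Tg), set against the same cells of wild type mice (WT). All mice were C57BL/6, and the 4 H3K27ac libraries, 2 per genotype, are 4 of the 12 libraries of the series. The other 8 hold the marks H3K4me1 and H3K4me3. The labels call the groups wild type and Phf6R274X Tg and name 2 mice for each. They do not say which promoter drives the transgene, whether the mice come from 1 transgenic line, or what age or sex they were. The 4 peak lists held 145399 peaks, which merged into 48376 regions where they overlapped. A region counted as present in a library that had at least 1 bp of a peak in it, and 19612 regions were present in all 4 libraries. By position, 11255 regions lay within 1 kb of the first or last base of a protein-coding gene (near a gene end), 22160 lay elsewhere in a gene, and 14961 lay outside genes.

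Acetylation of lysine 27 of histone H3 is placed by the enzymes p300 and CBP at active promoters and enhancers. Long stretches of it are known from highly active genes and from clusters of enhancers that set cell identity. Phf6 is an X-linked gene for a chromatin-bound protein of the nucleus and nucleolus. It is mutated in T-cell and myeloid leukaemias, and R274X is a change to a stop codon. Kit is the receptor for stem cell factor and is carried by blood stem and progenitor cells of the bone marrow.

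The promoters below are shown because each lies in a region described further on that differed between the genotypes. Each is the 250 bases before the annotated start, read 5′ to 3′ on the strand of the gene, from RefSeq on GRCm38.p6, the assembly also called mm10. Mpo and Gabbr1 start in regions whose summits were higher and lower in Tg, and Trim47 and Chil1 start in regions found in 1 genotype only. Capitals mark matches, on either strand, to short motifs.
Mpo, chr11:87793534-87793783, plus strand: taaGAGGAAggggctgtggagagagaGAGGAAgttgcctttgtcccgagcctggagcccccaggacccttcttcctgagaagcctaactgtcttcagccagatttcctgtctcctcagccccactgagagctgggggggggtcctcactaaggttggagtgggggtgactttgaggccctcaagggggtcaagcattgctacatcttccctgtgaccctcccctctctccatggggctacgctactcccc
Gabbr1, chr17:37045716-37045965, plus strand: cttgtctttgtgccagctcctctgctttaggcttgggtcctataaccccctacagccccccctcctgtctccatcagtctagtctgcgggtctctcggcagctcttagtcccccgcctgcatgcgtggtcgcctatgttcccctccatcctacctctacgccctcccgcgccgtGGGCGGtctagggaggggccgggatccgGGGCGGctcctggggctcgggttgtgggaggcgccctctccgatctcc
Trim47, chr11:116110236-116110485, minus strand: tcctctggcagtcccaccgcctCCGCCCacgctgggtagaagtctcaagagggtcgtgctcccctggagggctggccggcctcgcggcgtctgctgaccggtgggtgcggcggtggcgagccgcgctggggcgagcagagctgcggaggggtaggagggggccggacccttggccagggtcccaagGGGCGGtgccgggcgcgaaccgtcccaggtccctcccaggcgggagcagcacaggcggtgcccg
Chil1, chr1:134181906-134182155, plus strand: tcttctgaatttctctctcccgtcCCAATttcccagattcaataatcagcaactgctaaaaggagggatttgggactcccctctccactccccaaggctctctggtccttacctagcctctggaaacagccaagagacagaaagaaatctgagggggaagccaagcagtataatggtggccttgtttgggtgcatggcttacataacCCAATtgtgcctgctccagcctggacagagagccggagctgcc
The motifs searched on both strands were those of the TATA box (TATAAA), of factors that bind the sequence CCAAT and of Sp1, whose GC box reads GGGCGG. Cores of blood regulators were searched as well: for RUNX factors it was TGTGGT, whereas for GATA factors it was AGATAA. For C/EBP factors the letters were TTGCNNAA, while PU.1, an Ets factor of myeloid and lymphoid cells, was searched as GAGGAA. The marked matches do not overlap each other. Mpo had 2 matches to GAGGAA, of which at least 1 is held by 23.3% of 32817 windows of the same length. Gabbr1 and Trim47 had 2 matches each to the GC box, where 32.7% of windows hold at least 1. Chil1 had 2 to CCAAT, where 33.8% hold at least 1. The promoters of Zfp692 and Ang, also in regions described below, were searched but are not printed. Zfp692 had 0 matches and Ang had 1, to CCAAT. These are matches of letters and say nothing of binding.

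The WT libraries held 42124 and 31257 peaks and the Tg libraries 33179 and 38839, in the order of replicate 1 and 2 that is kept throughout. The number of fragments stacked at a peak's summit (its pileup) could be worked out from the deposited fold and p-value of every peak. The lowest local background behind those values tracks depth and fragment length. Per base of fragment it was 2.57 and 1.38 times the lowest library in WT, and 1 and 1.86 times in Tg. Neither this indirect measure of depth nor peak number divided the libraries by genotype, whereas the median pileup of a peak did, at 25 and 25 in WT and 22 and 23 in Tg. Phf6 itself had 2210 and 2064 bp of peaks within 10 kb of its ends in WT and 1988 and 2072 bp in Tg. That does not test the label, since both genotypes had peaks there.

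Kit and most other markers of progenitors were acetylated in all libraries. Kit had 2826 and 1948 bp of peaks in WT and 2177 and 2048 bp in Tg, and 4 of the 6 progenitor markers had peaks in all 4 libraries, while Cd34 had 0 in each. Their summed length was 17102 and 15099 bp in WT against 11383 and 13462 bp in Tg. The 3 granulocyte markers (Ly6g, Ltf and Camp) summed to 31373 and 30415 bp in WT and to 14987 and 9794 bp in Tg, and all 3 had peaks in every library. Cd79a, a part of the B-cell receptor, had 4111 and 3486 bp in WT against 1692 and 2586 bp in Tg. T-cell markers (2037 and 2128 bp in WT, 2648 and 1827 bp in Tg) rested on Cd3d alone, with Cd3e and Cd8a at 0. Macrophage markers summed to 3153 and 3455 bp in WT against 1856 and 3145 bp in Tg, with C1qa at 0. Erythroid markers had 0 bp in both WT libraries and 386 and 1992 bp in Tg, with Alas2 at 0. Of the markers of cells outside the blood, Alb and Epcam were at 0. In such bulk samples fewer cells of a type and less acetylation per cell cannot be told apart.

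Peaks of H3K27ac were narrower in Tg than in WT, in genes, outside them and near their ends alike. The median peak was 717 and 852 bp wide in WT and 591 and 574 bp in Tg. Mean width was 1128 ± 60.4 bp for WT against 865 ± 8.71 bp for Tg (SD, n = 2 each), and the Tg libraries did not overlap the WT libraries. With 2 libraries against 2, the two-sided exact permutation test cannot give a p below 0.333, which is what it gave. Covered length followed, at 45.7 and 36.6 Mb in WT and 28.5 and 33.8 Mb in Tg (exact permutation p = 0.333). Peak numbers overlapped between the genotypes (exact permutation p = 1). WT replicate 2 had wider peaks than Tg replicate 2 although its relative depth was lower. It also had the longest fragments, with a narrowest peak of 273 bp against 238 bp in WT replicate 1 and 255 and 215 bp in Tg. The part of fragment length and depth in the width difference was not tested beyond these values.

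Near gene ends the median width was 1420 and 1357 bp in WT against 897 and 1162 bp in Tg. In genes it was 551 and 647 bp in WT against 495 and 450 bp in Tg, and outside genes 573 and 619 bp against 492 and 466 bp. Peaks of at least 3 kb numbered 2126 and 1644 in WT and 701 and 821 in Tg. Of these, 1064 and 857 in WT and 373 and 521 in Tg lay near gene ends, while outside genes there were 386 and 301 against 119 and 103. Ratios of the Tg to the WT mean were 0.465 near gene ends, 0.349 in genes and 0.323 outside. Every class thus held fewer such peaks in both Tg libraries than in either WT library.

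**Figure D1:**
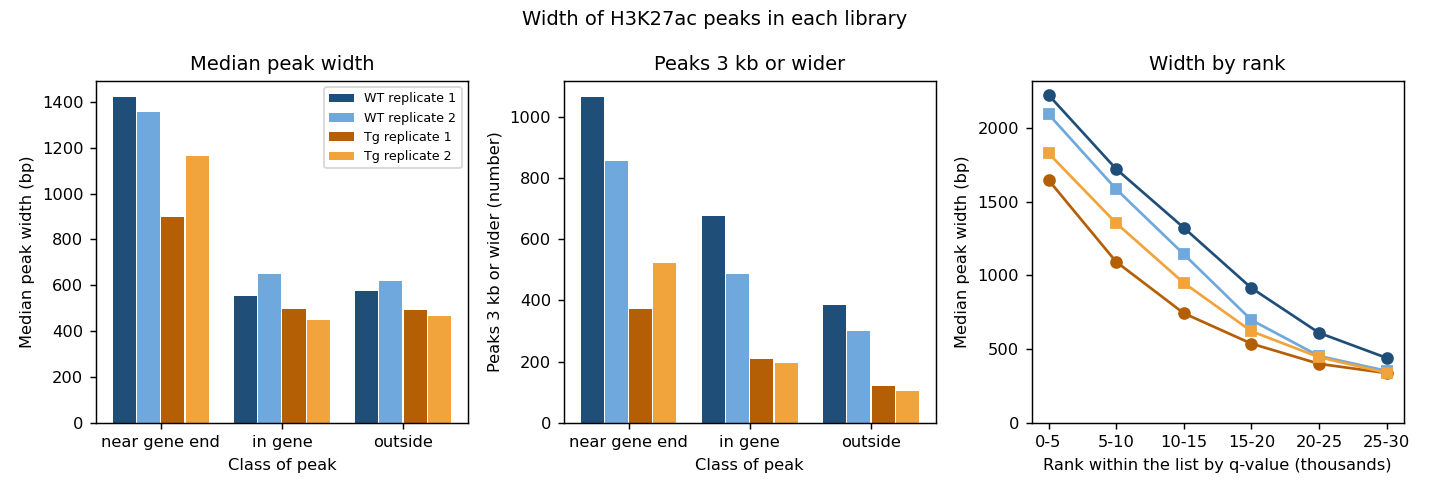
Width of H3K27ac peaks, with 1 bar or line per library: median width in bp by class, number of peaks of at least 3 kb by class, and median width in bp by rank of the q-value within each list. In both bar panels the Tg libraries lie below the WT libraries in each class, down to 119 and 103 wide peaks outside genes against 386 and 301.

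Peaks of the same rank by strength were compared to see whether weak peaks set the difference. Among the 5000 strongest peaks of each list the median width was 2224 and 2093 bp in WT against 1647 and 1828 bp in Tg. For ranks 10001 to 15000 it was 1323 and 1144 bp against 743 and 949 bp, and for ranks 25001 to 30000 it was 440 and 352 bp against 337 and 339 bp. Both Tg libraries lay below both WT libraries in each of these 3 ranges of rank. In the 19612 regions present in all libraries the median width was 1530 and 1365 bp in WT against 1062 and 1254 bp in Tg. The median region was narrower in Tg by a log2 difference of -0.26, and 48.4% of regions were narrower in both Tg libraries against 6.32% wider in both. That difference was -0.23 near gene ends, -0.35 in genes and -0.29 outside. It was -0.36 for the 4904 regions with the lowest summits and -0.20 for the 4903 with the highest.

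No single region passed the test of width once the libraries were brought to the same distribution of widths. Limma called 0 of 19612 regions (0%), with 2719 at an unadjusted p under 0.05 and the smallest adjusted p at 0.145. Values of the regions with the smallest p are given without a call. Inside Uvrag, a gene of autophagy and endosome traffic, a region had 2649 and 1970 bp of peaks in WT and 260 and 251 bp in Tg. A region in Il1rap, a receptor subunit for interleukin 1, had 1852 and 1612 bp against 265 and 266 bp. The start of Serpina11 had 1536 and 1547 bp against 255 and 266 bp, and a region at C1qtnf5 had 2051 and 1479 bp against 296 and 290 bp. Outside genes, a region 183074 bp from Pdgfra had 1820 and 1491 bp against 270 and 229 bp, and a region 4750 bp from G0s2, an inhibitor of fat breakdown, had 3136 and 2913 bp against 599 and 790 bp. All 6 of these regions were narrower in both Tg libraries. Wider ones included a region in Cux1, a homeobox gene, with 600 and 465 bp in WT against 1455 and 1753 bp in Tg. A region 51987 bp from Jade2 had 266 and 277 bp against 1097 and 1141 bp. One at Acvrl1, a receptor for BMP9, had 408 and 297 bp against 845 and 1004 bp, and one at Lin28a had 352 and 313 bp against 659 and 976 bp. The rule also named regions in Tspan13 and near Uggt1, with log2 differences of 1.53 and 1.69.

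Length covered by peaks within 10 kb of a gene's ends changed at 36 of 13079 genes tested (0.275%) by limma with Benjamini-Hochberg adjustment, 15 up (0.115%) and 21 down (0.161%). They lay at 26 separate loci, and 1647 genes had an unadjusted p under 0.05. These lengths were compared on log2(bp + 500) after quantile normalization. Without normalization the median gene was lower in Tg by 0.20 on the log2 scale, so a rise or a fall is relative to that. Before normalization both Tg libraries lay below both WT libraries at 45.2% of the genes and above them at 5.51%.

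Genes that rose included several outside the granule loci. Entpd4, a nucleotidase of the Golgi, had 762 and 679 bp of peaks in WT and 2406 and 2499 bp in Tg, with limma adjusted p = 0.0466. Capn3, a calcium-dependent protease, had 876 and 668 bp in WT against 2498 and 2468 bp in Tg. Ube2o, a ubiquitin-conjugating enzyme, had 309 and 0 bp against 1056 and 1179 bp. Both Tg libraries stood above both WT libraries at these genes, as at all 15. Slc46a1, the proton-coupled folate transporter, had 238 and 0 bp in WT against 1409 and 1486 bp in Tg. Gmpr, which turns GMP into IMP, had 278 and 0 bp against 897 and 1069 bp. Rtkn had 366 and 193 bp against 1009 and 1403 bp. Cited4, which binds p300 and CBP, had no peak in either WT library (0 bp) and 1157 and 1436 bp in Tg. It thus entered the test through its Tg peaks alone. Tmprss7, a membrane serine protease, had 323 and 0 bp against 913 and 1564 bp. Gm15056 and Gm6040 share 1 set of peaks, with log2 1.30. The remaining 5 rises were at the primary granule loci of Mpo and Lpo (log2 1.66 and 2.25) and of Elane, Prtn3 and Cfd (1.52, 1.48 and 1.56).

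Genes that fell often had few or no peaks in Tg. A gene was tested if at least 2 libraries had a peak, so genes at 0 in both Tg libraries entered through WT alone. Their 0 values are thus no separate support for the calls. With a peak asked for in all 4 libraries, 51 genes were called, which shared 16 of the 36 calls. Tmem45a2 had 7264 and 6932 bp in WT and 0 bp in both Tg libraries (limma adjusted p = 0.0227), the lowest adjusted p of the test. Pcyt1b, an enzyme of phosphatidylcholine synthesis on chromosome X, had 1960 and 1715 bp in WT and 0 in Tg. Mmrn2, Olfm4 and Cyp2j8 were also at 0 in both Tg libraries, from 3972 and 2990, 3602 and 2795, and 3878 and 2140 bp in WT. Il16, a cytokine, had 5587 and 3811 bp in WT against 637 and 718 bp in Tg, and its neighbour Stard5 had 6473 and 4723 bp against 1097 and 1353 bp. Zmpste24, the protease that matures lamin A, had 5609 and 5117 bp against 978 and 1028 bp. Timm8a2, of mitochondrial protein import, had 3106 and 2087 bp against 0 and 375 bp. Treml4 had 3523 and 2747 bp against 0 and 224 bp. Msrb3, which repairs oxidised methionine, had 1669 and 1475 bp against 0 and 310 bp. Abhd6 and Dnase1l3 share 1 set of peaks with 2227 and 1648 bp against 0 and 283 bp. Ear2, a ribonuclease of eosinophils, had 2047 and 1560 bp against 0 and 276 bp.

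Genes of mature neutrophils were among the falls. Cd177, a surface protein of neutrophils, had 14242 and 10539 bp in WT against 2500 and 3156 bp in Tg, next to Lypd10 and Lypd11, which share part of its peaks and also fell. Mmp8, the collagenase of neutrophils, had 8993 and 9927 bp against 1399 and 2302 bp, and Mmp27 beside it 11057 and 11045 bp against 1390 and 2426 bp. Ces1d and Ces1e, which are not counted with the neutrophil genes, share their peaks and changed by -1.42. The granulocyte markers given above were lower in Tg too, but none passed. Their limma adjusted p was 0.0910 for Ltf, 0.297 for Ly6g and 0.493 for Camp. The part of granulocytes in the falls was not tested. Leaving out either WT replicate, 1 or 2, ended all 36 calls (0 left each time, with 851 and 1093 genes at an unadjusted p under 0.05). Scaling to equal total covered length gave 1 rise and 5 falls, and no normalization gave 0 and 1. There were 83 without Tg replicate 1 and 117 without Tg replicate 2. With the replicate number as a block, 6 falls were left and 0 rises: Tmem45a2, Mmrn2, Lypd11, Olfm4, Cyp2j8 and Treml4.

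**Figure D2:**
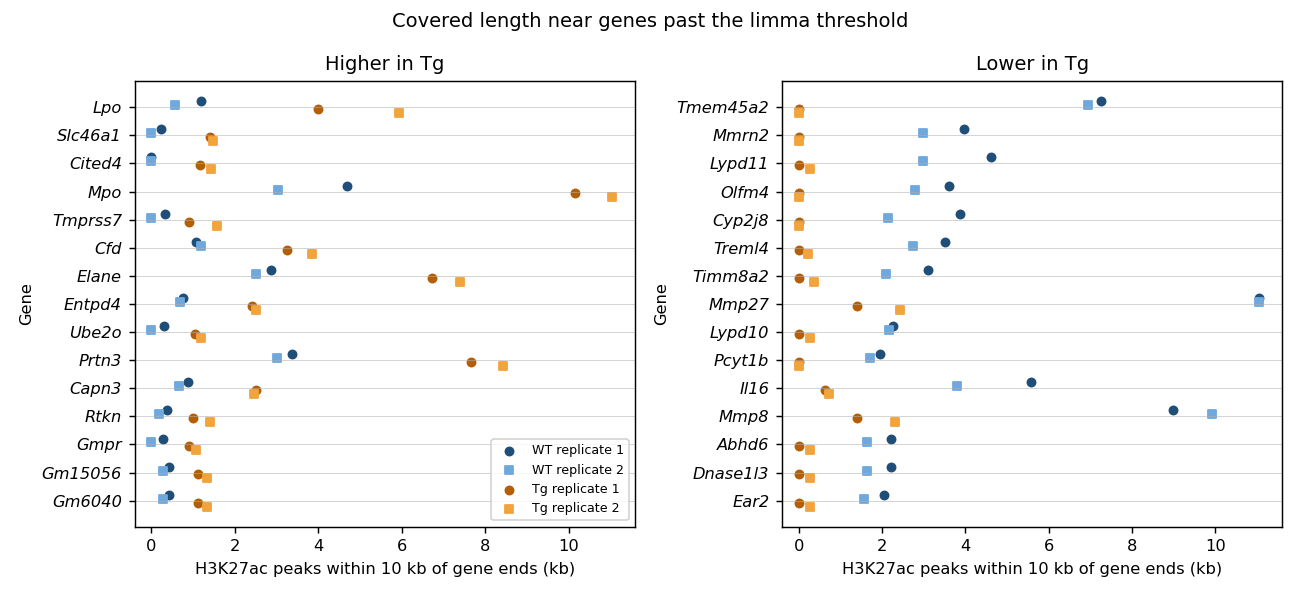
Length covered by H3K27ac peaks within 10 kb of gene ends, in kb, with 1 point per library, for the 15 genes that rose and the 15 with the largest falls. Both Tg points lie to the right of both WT points in the left panel and to the left of them in the right panel, where Tmem45a2 is at 0 in both Tg libraries.

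In bins of 100 kb, which take in stretches far from genes, 86 of 10063 changed (0.855%), 17 up (0.169%) and 69 down (0.686%). There were 1702 bins with an unadjusted p under 0.05. Of the 86, 18 hold no protein-coding gene, and the share of such bins among all bins tested was not counted. On chromosome 4, the bin from 66100001 to 66200000 in Astn2, a gene known from neurons, had 4941 and 5176 bp of peaks in WT and 0 in Tg (limma adjusted p = 0.0249). The bin that overlaps Pglyrp4, of antibacterial defence (chromosome 3, from 90700001), had 3536 and 3955 bp against 0 and 215 bp. Of the WT length, 2310 and 2242 bp lay in 1 WT-only region whose nearest gene is S100a9, 11800 bp away. A bin with no gene on chromosome 14, from 79900001, just before Olfm4, had 4192 and 2836 bp against 0, and the bin of Zfp280d on chromosome 9 had 3678 and 2609 bp against 0. The bin of Tmem45a2 fell by 2.79 on the log2 scale, with 7906 and 8277 bp against 0 and 313 bp. Of the called bins 24 were at 0 in both Tg libraries and 4 in both WT libraries. Such bins entered the test through the other genotype alone, and their share among all bins tested was not counted.

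Among bins that rose, that of Ankrd55 on chromosome 13 had 0 bp in both WT libraries and 3193 and 1863 bp in Tg (limma adjusted p = 0.0479). A bin without a gene on the same chromosome, from 52100001, had 598 and 0 bp against 2342 and 2791 bp. The bin of Stam, an adaptor of receptor sorting, and Tmem236 had 392 and 588 bp against 2224 and 2770 bp. Gse1 had 983 and 1132 bp against 3740 and 3794 bp, and the bin of Tmprss7 rose by 1.57. A bin that overlaps Meis1, a homeobox gene of stem cells, had 0 bp in WT against 1027 and 1420 bp in Tg. The rule did not name that bin, and how much of its peaks lies in Meis1 was not counted. No bin was called by limma when any 1 library was left out, with 737 to 1784 at an unadjusted p under 0.05. The same held without normalization (1789) and with scaling to equal total covered length (1647).

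The immunoglobulin heavy chain locus was picked out after its values were seen. Its bins on chromosome 12, from 113258768 to 116009954, held 96.0 and 79.0 kb of peaks in WT and 30.6 and 43.8 kb in Tg. Of 16 bins tested there 3 fell and 0 rose, where 0.686% and 0.169% of all bins did. A negative change was found in 14 of them, against 43.5% of all bins, and the median log2 was -0.57 against 0.05 for all bins. Cd79a was lower in both Tg libraries too, as given above, and the part of B cells was not tested.

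Summits were higher in Tg at some regions and lower at others. This test of summit height was added after the data had been seen, so it ranks behind the tests above. It compared log2 pileup at the highest summit of each of the 19612 regions present in all libraries, after quantile normalization. Limma called 272 regions (1.39%), 128 higher in Tg (0.653%) and 144 lower (0.734%), with 3741 at an unadjusted p under 0.05. The spread was allowed to follow the level, and a fit without that, as used for width, called 15. Near gene ends 52 of 8663 regions rose and 25 fell. In genes 39 of 6205 rose and 68 fell, and outside genes 37 of 4744 rose and 51 fell. So near gene ends 0.600% rose and 0.289% fell, while in genes 0.629% rose and 1.10% fell. Of the 52 rises near gene ends, 16 lay near the end of a histone gene. Others lay in the runs on chromosomes 4 and 6 described below, and the balance without these was not counted. Regions that rose had median pileups of 42.5 and 38.5 fragments in WT and 64 and 89.5 in Tg. Those that fell went from 101 and 67.5 to 18 and 23. Over all 19612 regions the medians were 64 and 46 in WT and 32 and 47 in Tg. Regions with a higher summit were also wider after normalization in 124 of 128 cases, and 0 of the 144 that fell were wider, against 56.3% of all 19612 regions. Width and summit were read from the same peaks, so width is no separate support for these calls.

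Normalization bears on the rises more than on the falls. Without it the median region was lower in Tg by 0.52 on the log2 scale. The median pileups of replicate 2 were level all the same, at 46 in WT and 47 in Tg. In the fit without normalization 3 regions were called up and 79 down. All 12 falls named below stayed called there, and of the 12 rises named only the 3 at Vav1 did, where a part of transgene copies was not tested. In the raw pileups all 144 falls and 109 of the 128 rises showed no overlap between the genotypes. Over all 19612 regions both Tg libraries lay below both WT libraries at 45.4% and above them at 3.93%. No region was called with any 1 library left out, with 770 to 4247 at an unadjusted p under 0.05.

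Near gene ends, the rises were led by Lin28a, an RNA-binding protein that blocks let-7 maturation. Its region at chr4:134002401-134003376 had pileups of 17 and 16 in WT and 35 and 64 in Tg, up by log2 1.89 ± 0.29 (SE, limma adjusted p = 0.0205). The region over the start of Mpo, the myeloperoxidase gene whose promoter is printed above, had 23 and 23 against 52 and 70 (adjusted p = 0.0220). Its width went from 3266 and 1726 bp to 7544 and 7240 bp. Zfp692, a zinc finger gene, had 25 and 23 against 52 and 73, and Ang, the ribonuclease angiogenin, 21 and 17 against 40 and 63. All 4 had both Tg libraries above both WT libraries. Among the falls, the region over the start of Gabbr1, a subunit of the GABA type B receptor whose promoter is printed above, had 127 and 63 against 20 and 18. Its log2 change was -1.74 ± 0.31 (SE; limma adjusted p = 0.0294). BC049352 had 108 and 82 against 17 and 21, Osbpl11, a lipid-binding protein, 159 and 86 against 13 and 45, and Mfsd6 had 167 and 81 against 25 and 28. At the start of Gabbr1 H3K4me3 was present in all 4 libraries, with pileups of 91 and 82 under the WT label against 110 and 89 under the Tg label.

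Inside genes, Col1a1, for the main collagen of bone, had the largest fall of all. Its region at chr11:94944127-94947064 had 185 and 92 fragments in WT and 11 and 18 in Tg (log2 -2.73 ± 0.31, SE; limma adjusted p = 0.0031). H3K4me1 pileup in that region was 42 and 49 in WT and 28 and 28 in Tg. Col1a1 is also a marker of cells outside the blood. Of the other 4 markers of that list, Pecam1 had 3128 and 1333 bp of peaks within 10 kb of its ends in WT against 3339 and 2181 bp in Tg. By summit height, however, a region inside Pecam1 fell too, from 154 and 87 fragments to 29 and 34 (limma adjusted p = 0.0408). By length near the gene ends Cdh5 had 0 and 0 against 0 and 226 bp, and Alb and Epcam had 0. Fmnl2, a formin, fell from 104 and 53 to 13 and 16, Adamts17, a secreted protease, from 107 and 43 to 9 and 21, and Adk, adenosine kinase, from 168 and 64 to 17 and 25. Within Asxl1, a chromatin regulator mutated in myeloid disease, a region fell from 74 and 59 to 14 and 14. Asxl1 was chosen after its values were seen. Rises in genes included Camk2b, a kinase of calcium signalling, from 19 and 21 to 51 and 61, Pan3, of the deadenylase that shortens mRNA tails, from 22 and 18 to 55 and 47, and Akap5, an anchor for protein kinase A, from 29 and 27 to 53 and 86. The groups did not overlap at any of these regions.

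Outside genes, Hao1 was the gene nearest to the largest fall, from 80 and 40 to 9 and 11 (log2 -2.12 ± 0.30, SE; limma adjusted p = 0.0195). Regions near Apod went from 135 and 54 to 15 and 16, near Rgcc from 85 and 42 to 13 and 11, and 7933 bp from Plbd1, a phospholipase of neutrophils, from 134 and 94 to 18 and 23. At the Plbd1 region H3K4me1 pileup was 34 and 44 in WT and 44 and 38 in Tg. Rises were nearest to Lyrm9, from 20 and 17 to 42 and 63, and to Optc, from 13 and 18 to 45 and 37. The 272 regions had 246 nearest genes, of which 19 had at least 2 called regions.

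**Figure D3:**
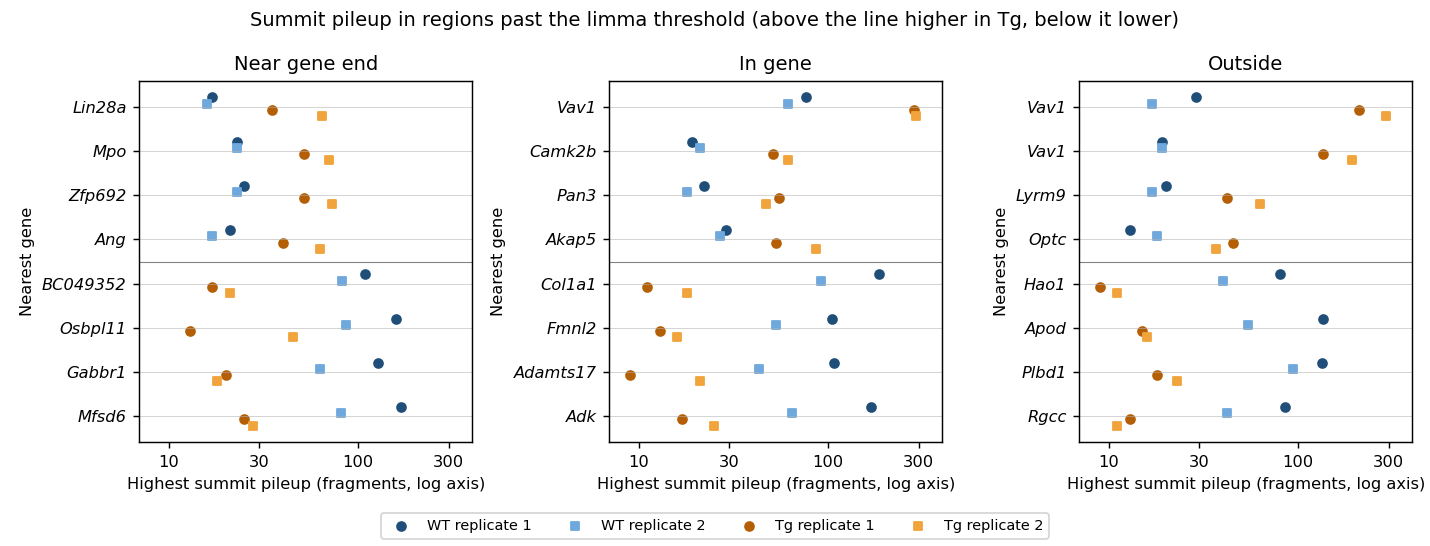
Highest summit pileup (fragments, log axis) in each library for the 4 regions per class with the largest rises (above the line) and falls (below it), named by the nearest gene. WT and Tg points are apart at all 24 regions, most at Vav1 with 29 and 17 in WT against 208 and 291 in Tg.

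At Vav1, a signalling protein of blood cells, pileup rose in 4 neighbouring regions. The labels do not name the promoter of the transgene, so whether some of these fragments come from transgene copies rather than from Vav1 itself was not tested. Upstream, at chr17:57274743-57276444, pileup was 29 and 17 in WT and 208 and 291 in Tg (log2 3.92 ± 0.24, SE; limma adjusted p = 7.1e-06). The next region had 19 and 19 against 135 and 192, the region over the start 85 and 71 against 137 and 159, and the one inside the gene 76 and 61 against 284 and 291. The region over the start was narrower in Tg all the same, at 1321 and 1086 bp against 2086 and 2556 bp. In H3K4me1 the upstream region likewise had 33 and 38 fragments in WT and 289 and 352 in Tg. In H3K4me3 it had 322 and 306 under the WT label, which are the highest pileups of those libraries and 2 times their narrowest peak, against 127 and 127 under the Tg label. Beyond the gene, 2 further regions of H3K27ac nearest to Vav1 were not called, with 27 and 27 against 32 and 39 (log2 0.81) and 28 and 29 against 29 and 27 (log2 0.38). In all 4 H3K4me3 lists the names of the peaks give the other genotype than the label does, which 0 of the 4 H3K27ac lists do, so directions for H3K4me3 go by label only.

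Runs of at least 3 called regions with gaps of at most 20 kb were looked for after the values were seen. There were 8, of which 7 rose. The 1 that fell spans Rtp3 and Ltf, the lactoferrin gene of neutrophil granules, where 3 of 4 regions fell by log2 -1.80 to -1.29. Its median pileups were 111 and 83 in WT and 19 and 21 in Tg. A pair of stretches of chromosome 6, from 47654862 to 47686408 and from 47739795 to 47773088, rose at 15 of 16 regions by log2 0.96 to 1.17. In the first the regions follow each other every 4319 bp in the median, with median pileups of 151 and 132.5 in WT and 238.5 and 178 in Tg. On chromosome 4, from 88787691 to 88803338, 5 of 6 regions beside Gm13277 and its neighbours rose, from 60 and 68 to 122 and 112. Such evenly spaced or near-identical copies are uncertain, since reads may not tell the copies apart.

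Histone genes made up 3 of those runs, on chromosome 13. These genes, too, were grouped after the values were seen. Of 36 regions near the end of a histone gene 16 rose and 0 fell, where 0.600% and 0.289% of all regions near gene ends did, with a median log2 change of 0.92 against -0.00 over regions near gene ends. Their median pileups were 125.5 and 152.5 in WT and 154 and 207.5 in Tg. Raw pileups overlapped between the genotypes at 7 of the 16, and none of the 16 was called without normalization, where all rises lay at Vav1.

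**Figure D4:**
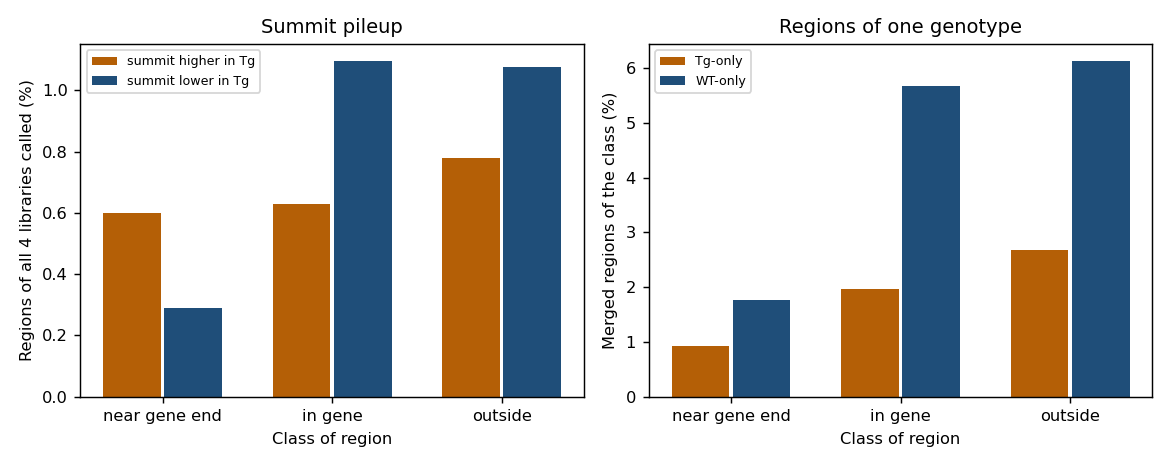
Regions by class: the share called higher or lower in Tg by summit height, and the share found in 1 genotype only, in percent of the regions of each class. Near gene ends rises (0.600%) outnumber falls (0.289%), with 16 of the 52 rises near the end of a histone gene. WT-only regions are a larger share than Tg-only regions in each class, up to 6.13% against 2.67% outside genes.

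Regions present in both libraries of 1 genotype and in neither of the other were more often those of WT. WT-only regions numbered 2371 (4.90% of all regions) and Tg-only regions 939 (1.94%). Near gene ends there were 198 and 105, in genes 1256 and 434, and outside genes 917 and 400. Their median widths were 637 bp for WT-only and 493 bp for Tg-only, against 1697 bp for regions in all libraries. An annotated start lay in 63 and 41 of them. Leaving out 1 library at a time gave 3116 to 11500 WT-only and 1266 to 4979 Tg-only regions, since fewer libraries set a looser rule. In 3 of those 4 settings, all but the one without Tg replicate 1, WT-only regions were the more numerous.

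Strength here is the rank of the q-value within each list, the lower of both libraries deciding, and not the pileup. WT-only regions near gene ends were strongest at Tmem45a2, where 1 region of 6251 bp had pileups of 70 and 34. The region over the start of Chil1, a chitinase-like protein of neutrophils and macrophages whose promoter is printed above, was 2915 bp wide with pileups of 50 and 37. Thbs1, for thrombospondin of platelets, had 36 and 56 at its start, and Bmpr1a, a BMP receptor, had 38 and 28. In genes the strongest lay in Astn2, in Pde4b, which breaks down cyclic AMP, in Blm, a DNA helicase, and in Prkar2a, a subunit of protein kinase A, with 102 and 37. Tpcn2 and Lars held others of the widest. Outside genes they were nearest to Plcb4, Slc7a11 (106970 bp away), Mfap4 and Try4, and the widest also lay near S100a9 and 2064 bp from Socs3. By number, Zfp386 was the nearest gene of 12 WT-only regions, Astn2 of 8, and Elmo1, Tbc1d8 and Tmem170b of 7 each. The called bins of the immunoglobulin heavy chain locus hold no protein-coding gene, so WT-only regions in them count for a gene elsewhere. Whether the 12 regions of Zfp386 are such regions was not tested.

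Tg-only regions near gene ends ranked first by that measure at the start of Trim47, a ubiquitin ligase whose promoter is printed above, with pileups of 23 and 25. Vps11, of lysosome fusion, had 37 and 34, Fcgr3, an Fc receptor of myeloid cells, had 65 and 57, and Gdf15, a stress-induced cytokine, had 24 and 29. The widest lay at Cited4, Mecom, a stem cell regulator with 12 and 27, and Entpd4. In genes they lay in Csmd1, Hoxa9, Ankrd55 and Hspb11, and the region in Ankrd55 was 2322 bp wide. The widest in genes also lay in Mpo and Myo1e. Outside genes they were nearest to Fut8, Efna1 and Gm525, and 1 region far from any gene on chromosome 9 had pileups of 219 and 269. It starts at position 3011521, and its strength was percentile 60.6, against 63.2 for the region near Fut8 with pileups of 28 and 28. The widest outside genes lay on chromosomes Y and X, near Mid1 on the latter, and 303476 bp from Gadd45g. Whether reads at the regions on chromosomes 9, Y and X belong to 1 place in the genome was not tested. Haao and Rreb1 were the nearest gene of 6 Tg-only regions each.

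H3K4me1 was present at most of these regions in both genotypes. Of the Tg-only regions 69.2% and 85.1% had an H3K4me1 peak in WT and 76.4% and 83.7% in Tg (two-sided exact permutation p = 1, n = 2 each). Of the WT-only regions 67.6% and 85.2% had one in WT and 71.4% and 84.0% in Tg (exact permutation p = 1). Of the 144 regions with lower summits 92.4% and 98.6% had one in WT and 93.1% and 97.9% in Tg. Replicates of the same genotype thus differed by more than the genotypes did. H3K4me3 peaks were found at 21.7% and 22.2% of WT-only regions under the WT label, against 27.6% and 22.0% under the Tg label. At Tg-only regions the shares were 42.6% and 32.7% against 31.4% and 33.9% (exact permutation p = 0.667).

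Further pathways and families were read from 28 lists. Slc46a1, 1 of 232 solute carriers tested, was the only member that passed in the gene coverage test, where 0.275% of all genes passed. The median change was lowest for C-type lectins, receptors that bind sugars, at -0.23 over 24 genes, against 0.03 over all genes. Clec4g had 857 and 1011 bp in WT against 0 and 217 bp in Tg (limma adjusted p = 0.104). It was -0.15 over 27 genes of lysosome and autophagy, with Lamp1, of the lysosome membrane, at 5172 and 4610 bp against 1747 and 2669 bp. The highest median was that of glutathione and redox genes, 0.13 over 21. Among genes of cholesterol synthesis, which had a median of 0.02, Sqle had 278 and 296 bp against 891 and 918 bp (adjusted p = 0.114). Hspa5 and Xbp1, of the unfolded protein response, had 2480 and 2811 bp against 3295 and 4094 bp, and 3460 and 3157 bp against 4284 and 4544 bp. Medians of Polycomb, MLL and SWI/SNF complexes were 0.03, 0.08 and 0.04, with 0 members called in each. No protocadherin of 69 had enough peaks to be tested.

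Chromosomes kept nearly the same share of the covered length. Chromosome 1 held 6.81% and 6.66% in WT and 6.44% and 6.41% in Tg. Chromosome 17 held 4.85% and 4.93% against 5.17% and 5.12%. Chromosome 5 held 6.08% and 6.01% against 6.29% and 6.29%, and chromosome 11 held 7.44% and 7.61% against 7.76% and 7.67%. None of these differences passed (exact permutation p = 0.333 each, adjusted p = 0.583 over the chromosomes).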

How the data were processed

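Peak lists of 4 H3K27ac libraries (2 WT, 2 Tg) were analysed, with those of H3K4me1 and H3K4me3 beside them. Per the labels' protocols, cells were sorted on a BD FACSAria II, chromatin was precipitated with a Diagenode kit, and single-end reads were made on a NextSeq 500. Per the submitters' processing notes, reads were trimmed or handled with Trim Galore, Bowtie2, SAMtools and deepTools, peaks with MACS2, and the build was mm10. Tool versions and the control library are not given in the sources used here. The authors deposited for each peak a score, a ratio (fold enrichment at the summit), and the p-value and q-value as −log10. Summit pileup was solved from fold and p-value as a whole number of fragments (tolerance 0.02), and total read counts were not used.

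Overlapping peaks were merged. Gene coverage (bp within 10 kb of a gene end, plus a pseudocount of 500), coverage of 100 kb bins (plus 1000), region width and summit height were compared on log2 values with quantile normalization in limma 3.58.1 (R 4.3.3), Benjamini-Hochberg threshold 0.05, for features with a peak in at least 2 libraries (width and height: all 4). The fit of height alone let the spread follow the level. The limma fit was tested on simulated region widths with scaling to the median. Quantile normalization, pseudocounts and the trend of the spread were not part of that test. Genes came from RefSeq (GRCm38.p6, 21887 protein-coding genes, 17492 with a stranded start). The nearest gene is a position, not a target. Members and lists were chosen with earlier results of these data known, and the summit height test after the data were seen. Named were, in each direction, the 15 largest changes of gene coverage with any others that passed, 5 bins, 4 summit heights per class, the 2 width changes per class with the smallest p, the 4 strongest and 3 widest regions of 1 genotype per class, and the cell type markers. Some named items are not reported here. Libraries are named by label, and nothing says which were prepared together, so p-values measure only the spread between these libraries. Pileup rests on reads without molecular identifiers.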

Additional observations from a re-analysis of the deposited data

How the results depend on the processing

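Direction of the named results did not reverse under any alternative run, but calls depended on the choices. Against 36 gene coverage calls there were 6 with scaling to equal total covered length, 1 without normalization, 0 with peaks of −log10 q of at least 5, 0 with the 25000 strongest peaks per list, 0 with a pseudocount of 100 bp and 114 with 2000 bp, 0 with a window of 1 kb, and 1 with genes that had a peak in at least 1 library. Fits with the whole gene (52 calls) or a peak in all 4 libraries (51) stayed within 1.5 times in number, but shared 33 and 16 of the 36 calls. Against 86 bins there were 0 with total scaling, 0 without normalization, 26 with the strongest peaks, 40 and 144 with pseudocounts of 100 and 5000 bp, 33 with a peak in at least 1 library and 1 in bins of 20 kb. Against 272 summit heights there were 976 with scaling to the median (447 up, 529 down), 82 without normalization (3 up, 79 down) and 15 without a trend of the spread. Region width gave 0 calls in all alternatives run, with 1415 to 3791 regions at an unadjusted p under 0.05, as gene coverage had 966 to 1693 where 0 were called with all libraries. The cause of these shifts was not tested.

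Without normalization the median was lower in Tg by log2 -0.20 for genes, -0.26 for width, -0.52 for height and -0.22 for bins. Leaving out 1 library gave 0 to 117 gene calls, 0 to 0 bins and 0 to 0 summit heights, a log2 change of median peak width of -0.55 to -0.30 (all libraries -0.43, and -0.30 without WT replicate 2), of covered length of -0.55 to -0.23 and of peak number of -0.23 to 0.20, with 1266 to 4979 Tg-only and 3116 to 11500 WT-only regions. Asking for 50% of a region's length to be covered gave 4209 WT-only regions.

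Widths in the libraries of replicate number 1 deviated from their genotype means with a correlation of -0.11. That single value cannot show whether libraries of the same number were prepared together. With the number as a block there were 6 gene calls, 63 bins, 639 summit heights and 0 widths. With the pairing crossed, an alternative added after seeing the data like all those of summit height, there were 10 gene calls, 247 bins, 1972 summit heights and 0 widths. As to depth, the peak of median pileup rested on 22 to 25 fragments at its summit in each library.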
